A study of Homo sapiens with 4 samples.

Results

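The integrated stress response is carried out in the nucleus by a small group of transcription factors and the regulators that act on them, and 10 of these genes are described here in HEK293 cells, an established human embryonic kidney line, after 7 days in high or low glucose. The genes were chosen by name, as ATF3, ATF4, ATF5, DDIT3, CEBPB, CEBPG, TRIB3, NUPR1, CHAC1 and JDP2, through every probe set whose platform annotation names that gene alone. They were measured by 18 of the 54613 non-control probe sets, 5 genes by 1 probe set each and 5 by several. High glucose cells had DMEM with 450 mg/dl glucose and low glucose cells DMEM with 100 mg/dl, both supplemented with FCS, and each condition has 2 arrays. All cells came from a single line. Per the labels each array is its own biological replicate, with no word on whether the cultures were grown separately, so p-values measure only the spread between these samples, which may be technical.

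As background, cells that lack amino acids or glucose, misfold proteins in the endoplasmic reticulum (ER) or lack heme phosphorylate the translation factor eIF2alpha, which slows most protein synthesis but favours translation of the ATF4 and ATF5 mRNAs. ATF4 pairs with C/EBP proteins and other basic leucine zipper (bZIP) factors and raises transcription of genes for amino acid uptake and synthesis, together with ATF3, DDIT3, TRIB3 and CHAC1. Part of this output feeds back, since TRIB3 binds ATF4 and restrains it, and prolonged activity of DDIT3 favours cell death. Messenger RNA levels, which these arrays read, do not show how strongly ATF4 or ATF5 was translated.

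Signals are in the arrays' own units, already scaled by the authors so that the 4 arrays share a trimmed mean. The medians of the 4 arrays lay between 33.3 and 38.7. A probe set was tested when its mean log2 signal reached the median of all probe sets, a signal of 32.9, and 17 of the 18 member probe sets did so, covering all 10 genes. The fit ran over 27307 probe sets, and a call is an adjusted p under 0.05. Of the markers fixed for HEK293, 8 of 9 were past the filter (all but NEFM), with summed signals of 22035 and 24794 in high and 20332 and 20765 in low glucose. No leukocyte marker of 4 with a probe set was past it, and of the other marker lists only PECAM1, CYP3A4, HBB and AHSP were, with no summed signal of any of these lists above 148.5 on any array. The 24 probe sets of the bacterial poly-A transcripts added before labelling were all brighter on both high glucose arrays (median 1.94 log2 units), the opposite direction to the members. The 6 ribosomal RNA probe sets had a median difference of 1.73 log2 units, 5 of them without overlap. The 18 hybridisation control probe sets all had lower means in high glucose (median -0.34, from -0.66 to -0.24), the members' direction. The part of these control differences in the results below was not tested.

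In high glucose 9 of the 10 genes were lower by their brightest probe set, and none was higher. Counted the same way, 32.6% of all genes were lower and 23.8% higher. Counted by probe set, 13 of the 17 tested fell, 0 rose and 4 did not pass (limma, with 0 rises also at an unadjusted p under 0.05). Over all probe sets tested, 27.2% fell and 23.1% rose. The members' 10 brightest probe sets had a median difference of -2.42 log2 units, where all 12242 genes had -0.10. Every high glucose array lay below every low glucose array in 14 of the 17 member probe sets, and in 41.5% of all probe sets tested. After median centring 37.0% of the calls over all probe sets were falls, against 54.1% with the authors' scaling, and the members' count of falls was still 13. The falls covered a wide span. By their brightest probe sets DDIT3 fell 23.0-fold and TRIB3 14.5-fold, CEBPB 5.95-fold and CEBPG 4.83-fold, ATF4 2.21-fold, JDP2 1.77-fold and ATF3 1.67-fold. NUPR1 and CHAC1 fell 41.7-fold and 11.7-fold as measured, against high glucose levels not shown to be above background. Both, and JDP2 probe set 239085_at, had high glucose means below the filter signal and reached it through their low glucose arrays. Their places among the falls or the groups without overlap therefore lean on the filter. The count of falls was also 13 with no filter.

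**Figure D1:**
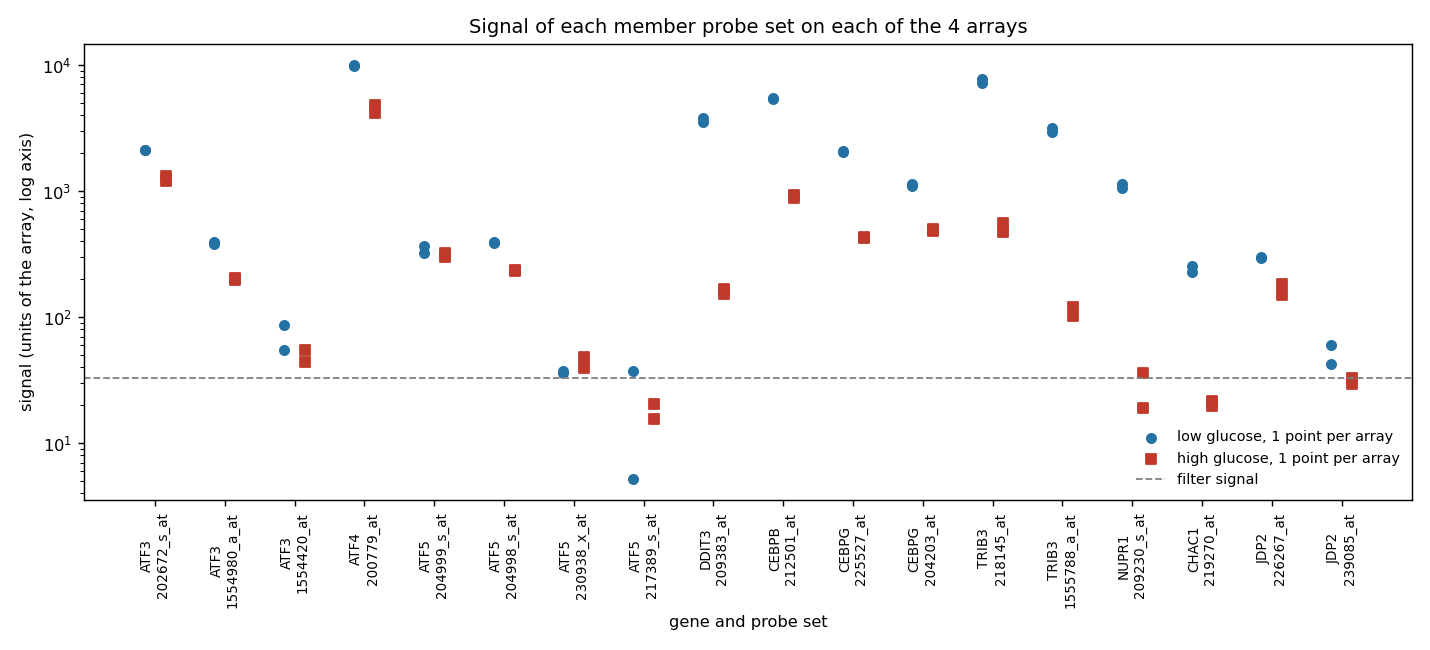
Signal on a log axis for each of the 18 member probe sets, with 1 point per array (blue circles low glucose, red squares high glucose), and the filter signal of 32.9 as a dashed line. The groups are far apart for DDIT3, TRIB3, NUPR1 and CHAC1, while those of ATF5 probe sets 204999_s_at and 217389_s_at and ATF3 probe set 1554420_at overlap.

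ATF4, the factor at the head of the pathway, was read by probe set 200779_at. Its signal was 4165 and 4830 on the high glucose arrays and 9778 and 10035 on the low glucose arrays. Low glucose cells thus held more ATF4 mRNA on both arrays, with no overlap. The fall in high glucose was -1.14 ± 0.09 log2 units (standard error of the fit, n = 2 per group), or 2.21-fold, with a limma adjusted p of 7.1e-05.

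ATF5, the closest relative of ATF4 and likewise controlled at translation, had no single answer among its 4 probe sets. The brightest, 204999_s_at, had signals of 299 and 321 in high and 365 and 320 in low glucose, and these overlap. Its log2 difference was -0.14 ± 0.10 and did not pass (limma adjusted p = 0.27), and after median centring it stood at 0.029. Probe set 204998_s_at read 237 and 233 in high and 388 and 395 in low glucose. That probe set fell by 0.74 ± 0.08 log2 units (1.67-fold, limma adjusted p = 4.1e-04), and its groups are apart. The dimmer 230938_x_at had 47.9 and 39.8 in high and 36.1 and 37.4 in low glucose, a log2 difference of 0.25 ± 0.28 that did not pass. The last, 217389_s_at, was below the filter, at 15.5 and 20.4 in high and 37.3 and 5.20 in low glucose, and its low glucose arrays alone span the high glucose values. Whether the probe sets of ATF5 differ from each other was not tested.

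CEBPB, a C/EBP factor that dimerises with ATF4 and with DDIT3, was read by 1 probe set. Its signal in 212501_at was 883 and 938 with high and 5340 and 5499 with low glucose. Both low glucose arrays were thus well above both high glucose arrays. The fall was -2.57 ± 0.06 log2 units, 5.95-fold, with a limma adjusted p of 1.1e-06.

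CEBPG, a short C/EBP protein without a strong activation domain of its own and a known partner of ATF4, was read by both of its probe sets in the same direction. In 225527_at the signal was 421 and 430 in high and 2067 and 2041 in low glucose. In 204203_at it was 479 and 499 in high and 1127 and 1105 in low glucose. The replicates lay close together in each case and the groups did not overlap. The differences were -2.27 ± 0.06 log2 units (4.83-fold) for the first and -1.19 ± 0.06 (2.28-fold) for the second, with limma adjusted p-values of 1.4e-06 and 1.6e-05. The size of the CEBPG fall therefore depends on the probe set read.

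DDIT3 encodes CHOP, a C/EBP family member that alters the DNA binding of its partners and is a classic marker of ER stress. Its 1 probe set, 209383_at, had signals of 151 and 167 with high and 3802 and 3520 with low glucose. The 2 groups are separated by more than an order of magnitude, and both are above the filter signal. DDIT3 fell by 4.52 ± 0.08 log2 units, 23.0-fold, with a limma adjusted p of 6.6e-07.

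ATF3, a bZIP repressor and immediate responder to many stresses, changed less. Its brightest probe set, 202672_s_at, had 1202 and 1319 in high and 2109 and 2106 in low glucose. Probe set 1554980_a_at had 197 and 204 in high and 377 and 391 in low glucose. In both the groups were apart, and the falls were -0.74 ± 0.07 and -0.94 ± 0.09 log2 units, or 1.67-fold and 1.92-fold (limma adjusted p = 1.3e-04 and 1.8e-04). Its dimmest probe set, 1554420_at, had 55.1 and 44.5 in high and 86.6 and 54.8 in low glucose. These values overlap, and its difference of -0.48 ± 0.29 did not pass (limma adjusted p = 0.21).

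JDP2, a bZIP repressor related to ATF3 that binds Jun proteins, was lower to a like extent. In 226267_at its signal was 183 and 151 in high and 292 and 298 in low glucose, with no overlap. The fall was -0.83 ± 0.13 log2 units, 1.77-fold (limma adjusted p = 0.0015). Its other probe set, 239085_at, was near the filter, with 29.5 and 33.2 in high and 42.2 and 59.9 in low glucose. The groups did not overlap there either, but the difference of -0.68 ± 0.31 did not pass (limma adjusted p = 0.10).

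TRIB3, the pseudokinase that restrains ATF4, was read by a pair of probe sets, and both fell. In 218145_at the signal was 471 and 558 in high and 7181 and 7672 in low glucose. In 1555788_a_at it was 121 and 101 in high and 2951 and 3139 in low glucose. All high glucose values were far below all low glucose values of the same probe set. The differences were -3.85 ± 0.09 log2 units (14.5-fold) and -4.78 ± 0.10 (27.5-fold), each with a limma adjusted p of 1.1e-06.

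NUPR1 is a small stress-induced chromatin protein. Its probe set 209230_s_at read 19.1 and 35.8 in high and 1127 and 1051 in low glucose. One high glucose array was below the filter signal and the other just above it, so the high glucose level was not shown to be above background. The difference was -5.38 ± 0.27 log2 units, 41.7-fold, with a limma adjusted p of 1.3e-05. With a pseudocount of 16 signal units it was -4.70, and with all signals below 32.9 raised to that value it was -4.99, both still past the threshold.

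CHAC1 encodes an enzyme that breaks down glutathione and is induced through ATF4. Its probe set 219270_at read 19.6 and 21.5 in high and 255 and 228 in low glucose. Both high glucose arrays were below the filter signal, and both low glucose arrays were far above it. The difference was -3.55 ± 0.21 log2 units, 11.7-fold, with a limma adjusted p of 2.5e-05. It was -2.82 with the pseudocount and -2.87 with low signals raised to 32.9, so the fold rests on how the dim side is treated.

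**Figure D2:**
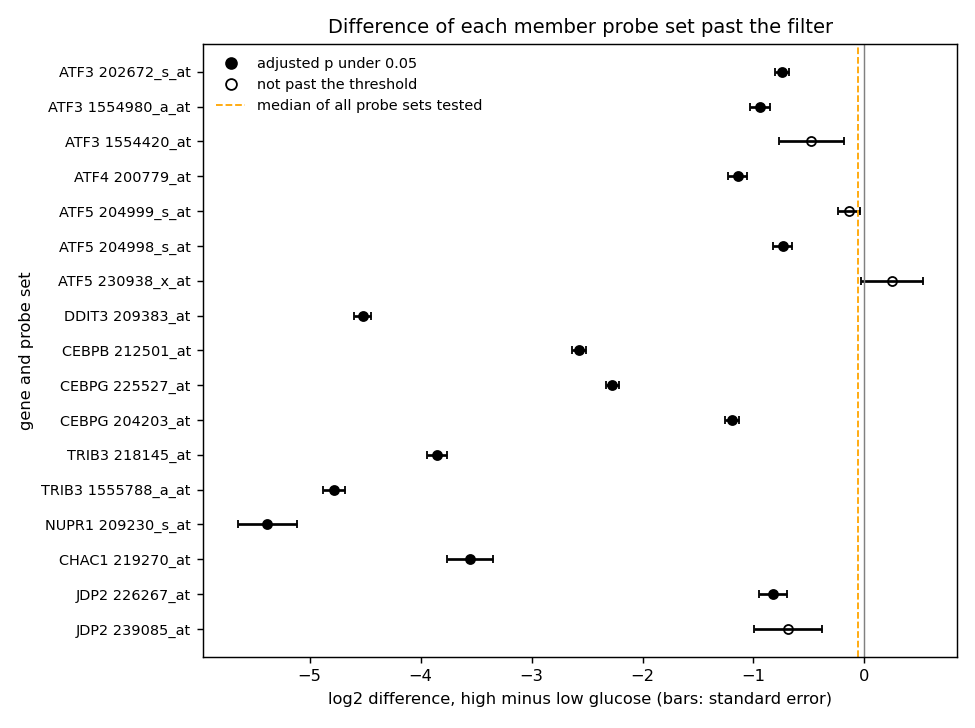
Log2 difference, high minus low glucose, of the 17 member probe sets past the filter, with standard errors of the limma fit as bars (n = 2 arrays per group) and the median of all probe sets tested as a dashed line. The 13 filled points passed the threshold and all lie below 0, from -0.74 to -5.38, and the 4 open points are those of ATF3, ATF5 and JDP2 probe sets that did not pass.

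The output genes of ATF4 and CHOP, a list of 48 genes without the members, were mostly lower in high glucose. Of 44 tested, 37 fell, 4 rose and 3 did not pass, with a median of -1.25 log2 units. Over all genes 32.6% fell and 23.8% rose. Counted among the falls, ALDH1L2 and SLC6A9 had high glucose means of 20.6 and 13.8, below the filter signal. They were tested through their low glucose arrays. With a stricter filter 35 of 42 fell. The smallest p-values belonged to VEGFA, an angiogenic factor (417 ± 12 in high and 2316 ± 132 in low glucose, SD, n = 2), SLC3A2, the heavy chain of amino acid transporters (1121 ± 51 and 5791 ± 210), SLC7A11, the cystine transporter (151 ± 15 and 1213 ± 42), and PPP1R15A, the GADD34 subunit that directs the eIF2alpha phosphatase (504 ± 23 and 1985 ± 60). All 4 fell, by -2.47, -2.37, -3.01 and -1.98 log2 units (limma adjusted p = 1.4e-06, 1.4e-06, 1.9e-06 and 2.6e-06). The 4 that rose were SLC7A5, ALDH18A1, EPRS1 and NARS1, which serve amino acid transport, proline synthesis and tRNA charging, and they are named after their values were seen. SLC7A5 rose most of these, by 0.80 ± 0.06 log2 units.

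The upstream machinery did not share this one-sided pattern in its counts. The list of 18 genes holds kinases, eIF2 subunits, eIF2B subunits and phosphatase adaptors, with GCN1, IMPACT, DNAJC3 and NCK1. Of these genes 7 fell, 6 rose and 5 missed the threshold, beside the same 32.6% and 23.8% over all genes. The list's median of -0.07 turned to 0.10 after median centring, where 4 fell. Beside PPP1R15A, which is in both lists, EIF2AK3, the ER stress kinase PERK, fell by 1.64 ± 0.09 log2 units (279 ± 25 in high and 867 ± 34 in low glucose). EIF2S1, eIF2alpha itself, rose by 1.41 ± 0.06 in its brightest probe set (2074 ± 65 and 782 ± 13), with rises of 0.73 and 0.32 in the further 2. DNAJC3, an inhibitor of eIF2alpha kinases, fell by 0.95 ± 0.07 in its brightest probe set while another, 1558080_s_at, rose by 1.18 ± 0.14, so its direction depends on the probe set.

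The other arms of the ER stress response, read by ATF6 and XBP1 and their targets, fell in 21 of 22 genes and rose in 0 (limma, also 0 at an unadjusted p under 0.05), with a median of -1.21 log2 units, where 32.6% of all genes fell. HERPUD1, which acts in ER-associated degradation, was at 630 ± 17 in high and 4078 ± 119 in low glucose, and fell by 2.69 ± 0.06 log2 units. HYOU1 and DNAJB9, both ER chaperones, fell by 2.51 ± 0.06 and 2.41 ± 0.06, and XBP1 fell by 2.18 ± 0.06. The second XBP1 probe set, 242021_at, was dim and stood at -0.10 without passing. The counts are by brightest probe set. DNAJC3, also in the upstream list, is among the 21 falls, although its probe set 1558080_s_at rose by 1.18 log2 units.

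Other bZIP factors, the wider family from which ATF3, ATF4, ATF5, DDIT3, CEBPB, CEBPG and JDP2 come, gave 22 falls, 3 rises and 8 genes that did not pass among 33 tested, with a median of -0.51 log2 units, beside 32.6% falls and 23.8% rises over all genes. The rises numbered 2 with no filter, a stricter filter, the replicate number as a block or signals below 32.9 raised to that value, and without each of the 4 arrays in turn. Among the falls, HLF had a high glucose mean of 19.5, and among the rises, FOSB had a low glucose mean of 25.9. Both means were below the filter signal, so each gene was tested through its brighter group. This list shares XBP1, ATF6 and ATF6B with the previous one. After XBP1, the smallest p-values were those of JUND, NFE2L1 and JUN. JUND, an AP-1 subunit, had 2564 ± 55 in high and 7649 ± 81 in low glucose and fell by 1.58 ± 0.06 log2 units. NFE2L1, which controls proteasome genes, fell by 1.19 ± 0.07. JUN fell by 1.15 ± 0.06 in its brightest probe set and by less, 0.75, 0.63 and 0.38, in its other probe sets, all called.

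The paralogs of members did not all fall. CHAC2, the constitutive relative of CHAC1, rose by 1.33 ± 0.07 log2 units, from 357 ± 14 in low to 896 ± 18 in high glucose (limma adjusted p = 1.5e-05), where CHAC1 fell. TRIB1 fell by 0.68 ± 0.11 log2 units (472.5 ± 78 and 749 ± 7.4), which is 1.60-fold, against 14.5-fold for TRIB3. TRIB2 fell by 0.27 ± 0.08 in its brightest probe set, a call lost after median centring (-0.10, limma adjusted p = 0.39), and its other probe set stood at 0.28 ± 0.24. The differences between paralogs were not tested.

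**Figure D3:**
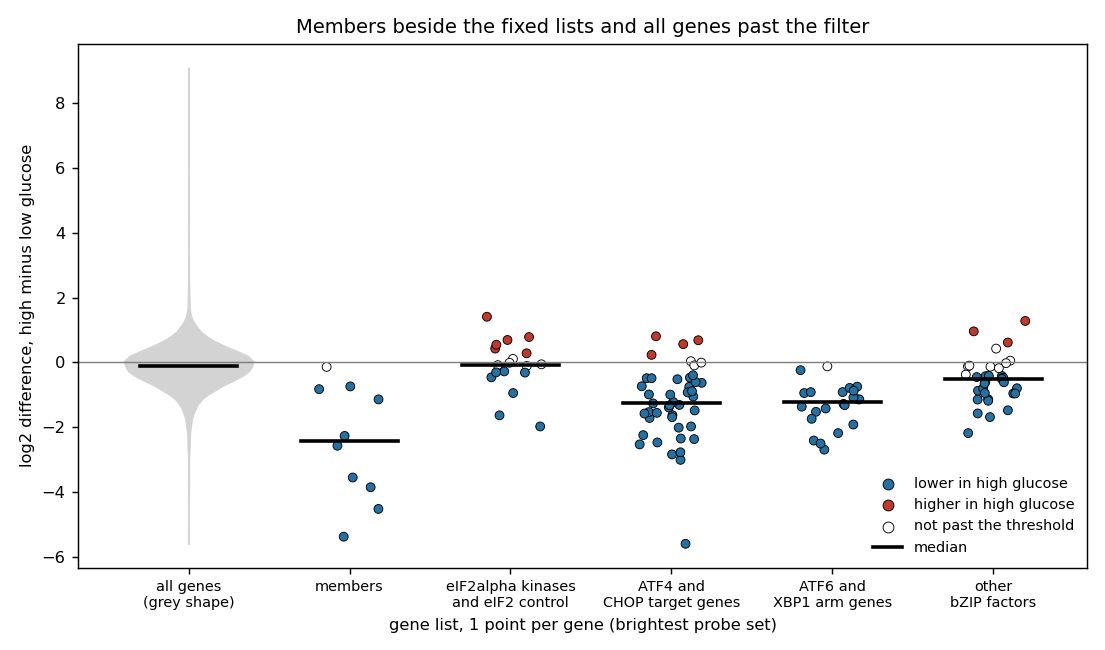
Log2 difference, high minus low glucose, of each gene by its brightest probe set, for the 10 members and the 4 lists, with medians as black bars, beside the distribution over all 12242 genes in grey. The members' median is at -2.42, and those of the lists run from -0.07 for eIF2 control to -1.25 for ATF4 and CHOP target genes.

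Across the 4 arrays, the genes whose centred log2 profile lay nearest to that of DDIT3 were HRK, SPATA24 and SH3BGR, at Euclidean distances of 0.35, 0.46 and 0.49 log2 units. HRK, a pro-apoptotic BH3-only gene, read 56.1 and 49.8 in high and 1001 and 1092 in low glucose. The genes nearest to ATF4 were SEPTIN6, DOCK6 and HSP90B1, at distances of 0.018, 0.029 and 0.031. HSP90B1, the ER chaperone GRP94, read 1909 and 2162 in high and 4475 and 4504 in low glucose. With 4 arrays in 2 groups, a small distance asks little more than a similar difference between the groups.

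ATF4 and C/EBP proteins bind together at the C/EBP-ATF response element, whose core was searched as TGATGNAA on both strands in the 250 bases before each gene start in the RefSeq promoter table (GRCh38.p14). The table holds 20 such windows for 9 of the members, several genes having more than 1 start. A match stood in 4 of the 20 windows, 1 each for CHAC1, CEBPG, JDP2 and ATF3, and in 3.14% of all 35116 windows. Some windows of the same gene overlap, as those of ATF4, DDIT3 and TRIB3 do, so windows are not separate promoters. Counted by gene, 4 of 9 members and 1061 of all 27305 genes had a match in any window. The 4 stretches are shown because they hold the match. Of the genes with a match, CHAC1 fell 11.7-fold as measured, CEBPG 4.83-fold, JDP2 1.77-fold and ATF3 1.67-fold by their brightest probe sets. Of the genes without, DDIT3 fell 23.0-fold, TRIB3 14.5-fold, CEBPB 5.95-fold and ATF4 2.21-fold, and ATF5 was not called. Whether a match goes with a fall was not tested. Capitals mark the match, which in CHAC1 lies on the opposite strand and therefore reads as its reverse complement, and all 4 are written along the gene's strand, which is plus.
CHAC1, chr15:40953251-40953280: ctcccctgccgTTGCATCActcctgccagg
CEBPG, chr19:33374060-33374089: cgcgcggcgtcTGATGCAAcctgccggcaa
JDP2, chr14:75427992-75428021: tatatagccggggcTGATGCAAcccgtccc
ATF3, chr1:212565205-212565234: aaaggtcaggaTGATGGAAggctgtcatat

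The match begins 209 bases before the 1 listed start of CHAC1. It begins 42 bases before 1 of 2 starts of CEBPG, 16 before 1 of 3 of JDP2 and 191 before 1 of 2 of ATF3. The windows of the other starts of CEBPG, JDP2 and ATF3 held no match. In CHAC1, CEBPG and JDP2 the variable base gives TGATGCAA, and in ATF3 TGATGGAA. CHAC1 has 1 window in the table, and its whole 250 bases, chr15:40953221-40953470, are given to show the match in its longer context.
CHAC1: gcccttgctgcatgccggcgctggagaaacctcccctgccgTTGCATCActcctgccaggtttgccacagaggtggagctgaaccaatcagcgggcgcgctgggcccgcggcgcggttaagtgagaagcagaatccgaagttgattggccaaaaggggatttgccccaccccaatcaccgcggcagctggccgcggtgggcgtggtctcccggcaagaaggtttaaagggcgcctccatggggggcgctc

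The cyclic AMP response element, TGACGTCA, was in 0 of the 20 member windows and in 1.65% of all windows. The C/EBP pattern TTGCNNAA was in 1 member window, of ATF5, and in 9.05% of all. TGATGNAA and TTGCNNAA can overlap each other, and did not in the member windows. The windows of ATF4, DDIT3, CEBPB and TRIB3 held none of the 3 patterns, which says only that these letters are not in those 250 bases.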

How the data were processed

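Total RNA of 4 HEK293 samples was measured on Affymetrix arrays. The values deposited by the authors are linear signal intensities, 1 per probe set and array. The submitters' processing notes name GCOS, with no version. Other steps: not given in the sources used here. The 2% trimmed mean was 200.02 on every array, so the authors' intensities were already scaled, which hides any shift common to most transcripts. Detection calls were not used.

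Of 54675 probe sets, 62 controls were left out, and 41097 had 1 gene in GEO's annotation. Intensities were log2-transformed with no pseudocount. Probe sets at or above the median mean log2 signal entered limma 3.58.1 under R 4.3.3 (lmFit, eBayes with intensity trend, no covariate), two-sided, with Benjamini-Hochberg adjustment over all 27307. All members were named. From each list, the 4 smallest p-values, all paralogs and the 3 nearest profiles to DDIT3 and ATF4 were named. HRK and HSP90B1 represent those profiles in detail. Further probe sets of JUN, and 1 of DNAJC3, XBP1 or TRIB2, were added after their values were seen. List genes were counted by their brightest probe set. The fit was tested on simulated data. Members and lists were chosen with earlier results of these data known. The number of arrays limits the precision.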

Additional observations from a re-analysis of the deposited data

How the results depend on the processing

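The 13 member probe sets called lower numbered 13 with quantile, median centring and cyclic loess normalization, with no filter or a stricter one (60th percentile), with the pseudocount, with no trend and without each array in turn, and 10 without _x_at and _s_at probe sets, where fewer were tested. No member was called higher under any of these. Over single member probe sets, 239 of 240 comparisons with an alternative kept direction and side of the threshold. In the other, ATF5 probe set 204999_s_at stood at 0.029 after median centring, which moves the median of all genes from -0.10 to 0.07. Alternatives that changed only the filter, the probe sets tested, the trend or the block leave each difference as it was. In those comparisons only the side of the threshold could change, not the direction. Of the 18 genes in the eIF2 control list, 4 fell and 7 rose after median centring. Over all 27307 probe sets 5060 fell and 8619 rose with that setting. Without _x_at and _s_at probe sets, 21 ATF4 and CHOP target genes fell and 2 rose among 27 tested. Of the other bZIP factors 13 fell and 3 rose among 24 tested. Over all 16745 probe sets left by that setting, 4414 fell and 3618 rose. Both groups use replicate numbers 1 and 2, which the labels tie to no batch. Same-numbered arrays' deviations from their group means correlated with r = 0.0077 across probe sets. From so few arrays this value cannot show whether they shared more than a number. With the replicate block 13 member probe sets fell. Raising low signals to 32.9 was an alternative chosen after seeing the data. Detection limits apply to NUPR1 and CHAC1 in high glucose, whose mean signals lay below 32.9.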
